A study of Sus scrofa with 18 samples.

Results

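Contact with leukocytes was examined in pig (Sus scrofa) kidney endothelial cells transfected with a plasmid for the sialyltransferase ST8Sia6. Total RNA of 4 co-cultured libraries (KEC25, KEC27, KEC29 and KEC31) was compared with that of 4 libraries of the cells alone (KEC9, KEC11, KEC13 and KEC15), 8 of the 18 libraries of the series. The libraries were chosen by consecutive blocks of 4 column numbers and by the names of the authors' deposited comparisons, and the treatment labels go against this choice in 2 of the 8. KEC31 is labelled wild type and KEC9 is labelled GFP control, whereas KEC25, KEC27 and KEC29 are labelled cell-cell interaction and KEC11, KEC13 and KEC15 carry the ST8Sia6 plasmid label. In the authors' deposited table, the fold change named for ST8Sia6 plasmid over ST8Sia6 interaction could be written as a weighted sum of the libraries. In that sum KEC31 had a weight of -0.193 beside -0.311 to -0.236 for the other 3 co-cultured libraries, and KEC9 had 0.229 beside 0.230 to 0.278 for the other 3 alone. The remaining 10 libraries had weights between -0.0303 and 0.0649, so the deposited comparison follows the blocks and not the labels. Over 12769 genes with a mean of at least 1 CPM (read counts scaled to a common library size), KEC31 lay closest to KEC29 (root mean square log2 difference 0.313, against 0.609 to the other wild type library) and KEC9 closest to KEC11 (0.175). Beyond the nearest library the distances did not follow the blocks. KEC9 was nearer to KEC3 (0.377) and KEC1 (0.394), which are GFP libraries alone, than to KEC13 (0.524) and KEC15 (0.565) of its own block. KEC31 was nearer to KEC13 (0.497) and KEC15 (0.555) than to KEC27 (0.670) and KEC25 (0.761). KEC25 lay 0.332 to 0.450 from KEC17, KEC19, KEC21 and KEC23, the GFP co-cultured block, but 0.728 and 0.761 from KEC29 and KEC31. KEC27 lay 0.382 to 0.51 from that GFP block, but 0.668 and 0.670 from KEC29 and KEC31. Results without KEC9 and KEC31 are given together after the counts over all genes.

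The cells were a purchased primary culture, grown on gelatin in medium with VEGF, EGF, hydrocortisone, heparin and serum, and both groups had gone through lipid transfection, with experiments run 24 hours later. The co-cultured cells had been kept with peripheral blood mononuclear cells (PBMCs, the lymphocytes and monocytes of blood) of 4 individuals. The species of the PBMCs, the length of contact, which individual belongs to which library and how the leukocytes were removed are not given in the labels. The labels speak of 4 experiments but tie no library to one, so p-values measure only the spread between these libraries, which may be technical. Some libraries lay close in pairs, KEC9 and KEC11 at a root mean square log2 difference of 0.175 and KEC25 and KEC27 at 0.273. KEC25 lay 0.728 and 0.761 from KEC29 and KEC31, and KEC9 lay 0.524 and 0.565 from KEC13 and KEC15. All tests counted the 8 libraries as separate. If such pairs are not independent, the p-values are too small and the gene counts too large.

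Endothelial cells line blood vessels and are the first donor cells that leukocytes of a recipient meet after organ transplantation. Leukocyte cytokines signal in endothelium through NF-kB and interferon pathways, which raise adhesion molecules, chemokines and MHC molecules, and inflammatory signals with TGF-beta can move endothelial cells towards a mesenchymal state rich in matrix and contractile proteins. ST8SIA6 encodes an enzyme that adds sialic acid onto sialic acid already on glycans, and the disialic structures it makes are ligands of inhibitory Siglec receptors on leukocytes. The comparison asks what leukocyte contact changes in cells meant to carry more of these ligands.

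The 8 libraries held 18506291 to 31141927 counts in the co-cultured block and 22600548 to 28925724 counts alone. Library values below always follow the order KEC25, KEC27, KEC29 and KEC31 for co-cultured cells and KEC9, KEC11, KEC13 and KEC15 for cells alone. ST8SIA6 had 0, 24, 2 and 1 counts in co-cultured libraries, against 1, 59, 0 and 3 counts alone. One library in each group thus held most of them, the groups overlapped, and the mean log2(CPM + 0.5) differed by -0.15 (exact permutation test, two-sided, p = 0.657, 70 regroupings). The counts lie on the pig gene, and the species of the coding sequence in the plasmid is not given, so the level does not check the transfection. Of 23 endothelial identity markers, 12 were among the 15240 genes analysed and 6 passed the filter on low counts. PECAM1, a junction protein of endothelium, had 2.06 to 3.10 CPM in co-cultured cells and 0.879 to 2.19 CPM alone, while CDH5, VWF and KDR were not among the genes analysed. KRT8, an epithelial keratin, had 576 to 1028 CPM in co-cultured cells and 740 to 1226 CPM alone, so the label endothelial cell rests on few of its defining markers here.

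The co-cultured block held pairs of libraries that were unlike. Transcripts of the mitochondrial chromosome took 24.3%, 25.4%, 3.32% and 2.29% of the counts in co-cultured libraries, against 1.97%, 1.89%, 1.72% and 1.42% alone. All 4 co-cultured libraries lay above all 4 alone, KEC25 and KEC27 by far the most (difference 12.1 percentage points, exact permutation test, two-sided, p = 0.0286, the smallest these 70 regroupings can give). Interferon-stimulated genes split the cells alone instead, with KEC9 and KEC11 high. The results below are therefore also given for KEC25 with KEC27 and for KEC29 with KEC31, each pair against all 4 libraries alone. The pairs share those controls, and the difference between pairs was not tested. Leukocyte transcripts were counted only on pig genes, so PBMCs of another species would be read in part or not at all. PTPRC (CD45, carried by nearly all leukocytes) had 0, 0, 59 and 17 counts in co-cultured libraries, against 0, 0, 11 and 15 alone. Summed over 17 markers shared by leukocytes, the level was 55.9, 60.0, 81.1 and 78.4 CPM in co-cultured libraries, against 49.2, 47.6, 63.9 and 68.6 CPM alone, and the groups overlapped (exact permutation test, two-sided, p = 0.229). Where bulk RNA changes, fewer cells of a kind and less RNA per cell cannot be told apart.

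**Figure D1:**
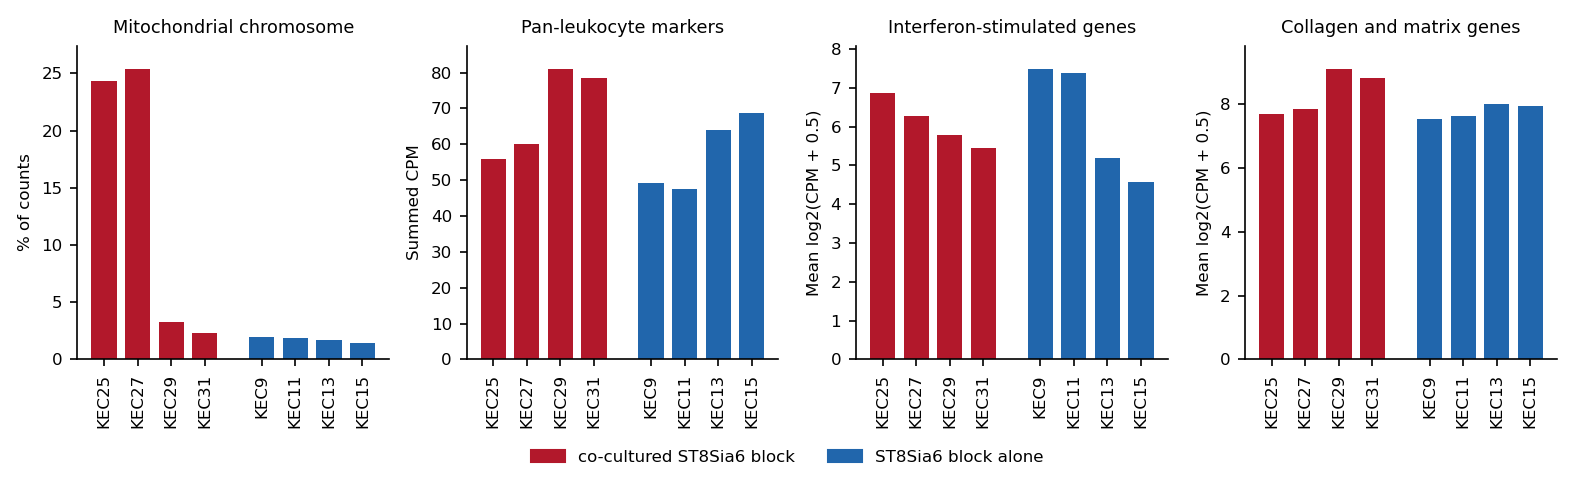
Library overview of the co-cultured ST8Sia6 block (red) and the ST8Sia6 block alone (blue), 1 bar a library. From left to right, the panels give the percent of counts on the mitochondrial chromosome (24.3% and 25.4% in KEC25 and KEC27, at most 3.32% elsewhere), the summed CPM of pan-leukocyte markers, and the mean log2(CPM + 0.5) of interferon-stimulated genes and of collagen and matrix genes. Interferon-stimulated genes are high in KEC9 and KEC11, and matrix genes are highest in KEC29 and KEC31.

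In the co-cultured block 9 of 39 matrix genes, 9 of 25 mesenchymal genes and 4 of 19 cytokine genes were higher. In the same block 18 of 28 cholesterol and fatty acid genes, 14 of 36 cell cycle genes, 9 of 25 kidney epithelial genes and 5 of 10 MHC class II genes were lower. Of 13989 genes tested, 2791 passed edgeR's quasi-likelihood test, with p adjusted by Benjamini-Hochberg and a threshold of 0.05. They were 1522 higher genes, or 10.9%, and 1269 lower genes, or 9.07%, and 579 of them had no symbol. The groups did not overlap for 3904 genes, which is 27.9% of those tested, and for 2622 of those that passed. The median log2 fold change over all genes was -0.01. Without KEC9 and KEC31 the count was 2118 (8.05% higher, 6.99% lower). Leaving out a single library gave 1198 (KEC9), 1108 (KEC11), 1849 (KEC13), 1705 (KEC15), 1659 (KEC25) and 1360 (KEC27) genes, fewer by more than 1.5 times, while 2190 passed without KEC29 and 3735 without KEC31. KEC25 and KEC27 gave 5933 genes, of which 21.3% of those tested were higher and 19.8% lower, and KEC29 and KEC31 gave 2287 (7.55% higher, 8.39% lower). Set against KEC9 and KEC11 alone, 1520 genes passed (5.19% higher, 5.29% lower), and against KEC13 and KEC15 alone 239 passed (0.817% higher, 0.824% lower).

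Without KEC9 and KEC31, 29 of the 130 named genes no longer passed. They were TBK1, IRF3, STING1, CXCL8, RELB, NFKBIZ, FLT1, SLA-DMB, F3, TNFSF9, TIMP3, STC2, ERN1, HSPA4, HSPE1, HSPA8, CDKN1A, TKT, EGR1, DUSP4, DUSP6, NOG, DKK3, ZNRF3, ITGAM, SPI1, IL1R2, ANGPT2 and SIGLEC1. In that fit 7 matrix and 6 mesenchymal genes were higher, as were 3 BMP and TGF-beta genes, 3 Wnt and Notch genes, 2 NF-kB feedback genes and 2 coagulation genes. The lower members were 10 of the cholesterol list, 7 of the cell cycle list, 7 of the kidney epithelial list and 3 of the MHC class II list. No member of the nucleic acid sensing or heat shock lists passed, and 1 amino acid and unfolded protein response gene was higher and 2 were lower.

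**Figure D2:**
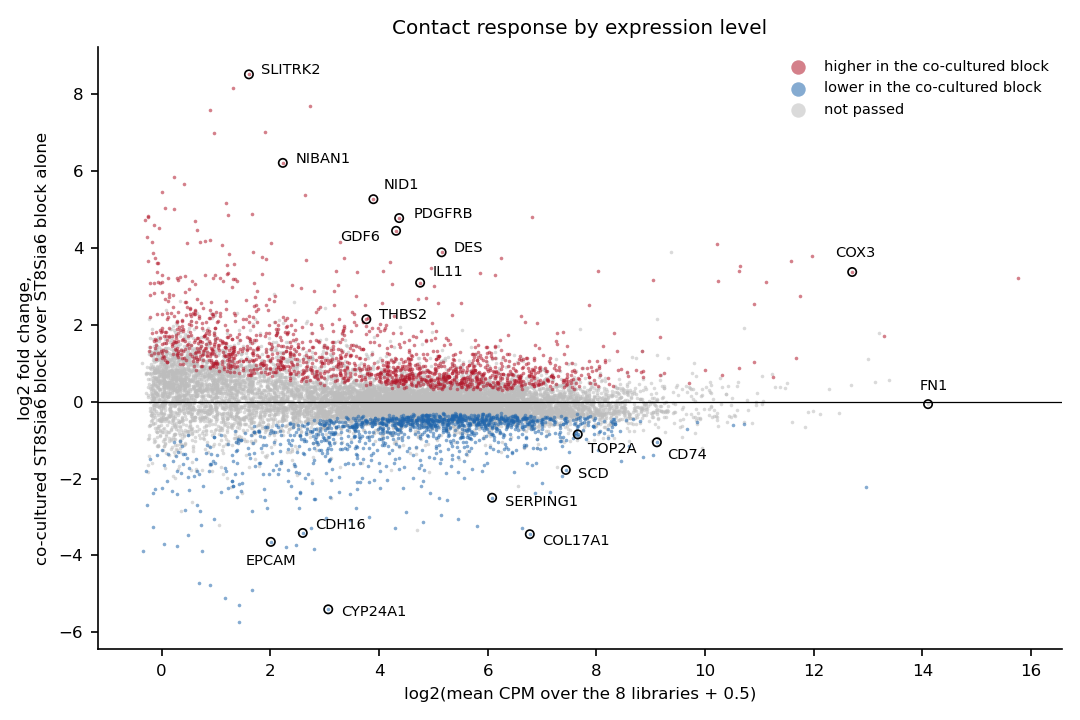
log2 fold change of each of 13989 genes (co-cultured ST8Sia6 block over ST8Sia6 block alone, y axis) against its mean level on the log2(CPM + 0.5) scale (x axis). Red genes were higher and blue genes lower at a false discovery rate under 0.05, grey genes did not pass, and circles mark genes named in the text. NID1, PDGFRB, GDF6 and DES stand high at moderate levels, whereas FN1, among the most abundant, lies at -0.06.

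Several structural genes of basement membrane and muscle rose by large folds, though SLITRK2, NIBAN1 and ALDH1A3, described further on, rose more. NID1, which links laminin to collagen IV in basement membranes, rose to 26.5, 36.03, 29.5 and 20.2 CPM in co-cultured cells, against 0.726, 1.20, 0.387 and 0.582 CPM alone. Every co-cultured library lay far above every library alone, a log2 fold change of 5.27 ± 0.34 (SE, adjusted p = 0.000534). PDGFRB, the platelet-derived growth factor receptor that marks pericytes and fibroblasts, had 48.3, 51.9, 29.8 and 25.9 CPM in co-cultured cells, against 1.21, 1.17, 1.76 and 1.52 CPM alone (log2 fold change 4.78 ± 0.30, adjusted p = 0.000534). DES, the muscle intermediate filament desmin, had 62.8, 80.5, 41.4 and 78.0 CPM in co-cultured cells, against 3.07, 3.28, 6.86 and 4.52 CPM alone (3.89 ± 0.33, adjusted p = 0.0008). These genes were high in all 4 co-cultured libraries, in both pairs. COL14A1, a fibril-associated collagen, rose to 3.98 to 7.08 CPM, against 0.0807 to 0.255 CPM alone. ACTG2, the smooth muscle gamma actin, rose to 2.63 to 9.98 CPM, against 0.242 to 0.582 CPM alone. In build susScr11, NID1 (ENSSSCG00000026819.3) lies on chromosome 14 from 55239652 to 55435207, PDGFRB (ENSSSCG00000022741.3) on chromosome 2 from 151155754 to 151192647 and DES (ENSSSCG00000020785.3) on chromosome 15 from 121427103 to 121435424.

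Of 39 collagen and matrix genes, 9 rose and 0 fell, with a median log2 fold change of 0.51 against -0.01 over all genes. Those that rose were the 3 chains of collagen VI (COL6A1, COL6A2 and COL6A3), which form microfibrils around cells, with COL5A1, THBS2, LAMA5, LAMB2, NID1 and BGN. COL6A2 had 109, 111, 109 and 81.9 CPM in co-cultured cells, against 33.9, 39.1, 38.1 and 39.4 CPM alone (log2 fold change 1.45 ± 0.13, adjusted p = 0.0008). COL6A3 had 22.1, 22.6, 17.2 and 12.2 CPM in co-cultured cells, against 4.68, 5.18, 2.81 and 2.59 CPM alone. THBS2, a matricellular protein that restrains angiogenesis, had 15.1, 21.7, 23.4 and 25.5 CPM in co-cultured cells, against 4.56, 4.88, 3.80 and 6.04 CPM alone (2.15 ± 0.20, adjusted p = 0.0008). None of these 3 genes overlapped between groups.

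The abundant fibrillar collagens did not follow all 4 co-cultured libraries. COL1A1, the main chain of collagen I, had 4330, 5495, 18340 and 16950 CPM in co-cultured cells, against 3843, 4310, 6372 and 6009 CPM alone, a log2 fold change of 1.12 ± 0.48 that did not pass (adjusted p = 0.124). FN1, fibronectin, had 4865, 6189, 31270 and 26980 CPM in co-cultured cells, against 14000, 15090, 20890 and 21460 CPM alone. KEC25 and KEC27 lay below every library alone for FN1, and KEC29 and KEC31 lay above. Against the 4 libraries alone, KEC29 and KEC31 gave 23 higher and 0 lower members of the 39 (median 0.96), and KEC25 and KEC27 gave 10 higher and 10 lower (median -0.39). KEC25 and KEC27 are the libraries with the high mitochondrial share, and the part of that share in these values was not tested.

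**Figure D3:**
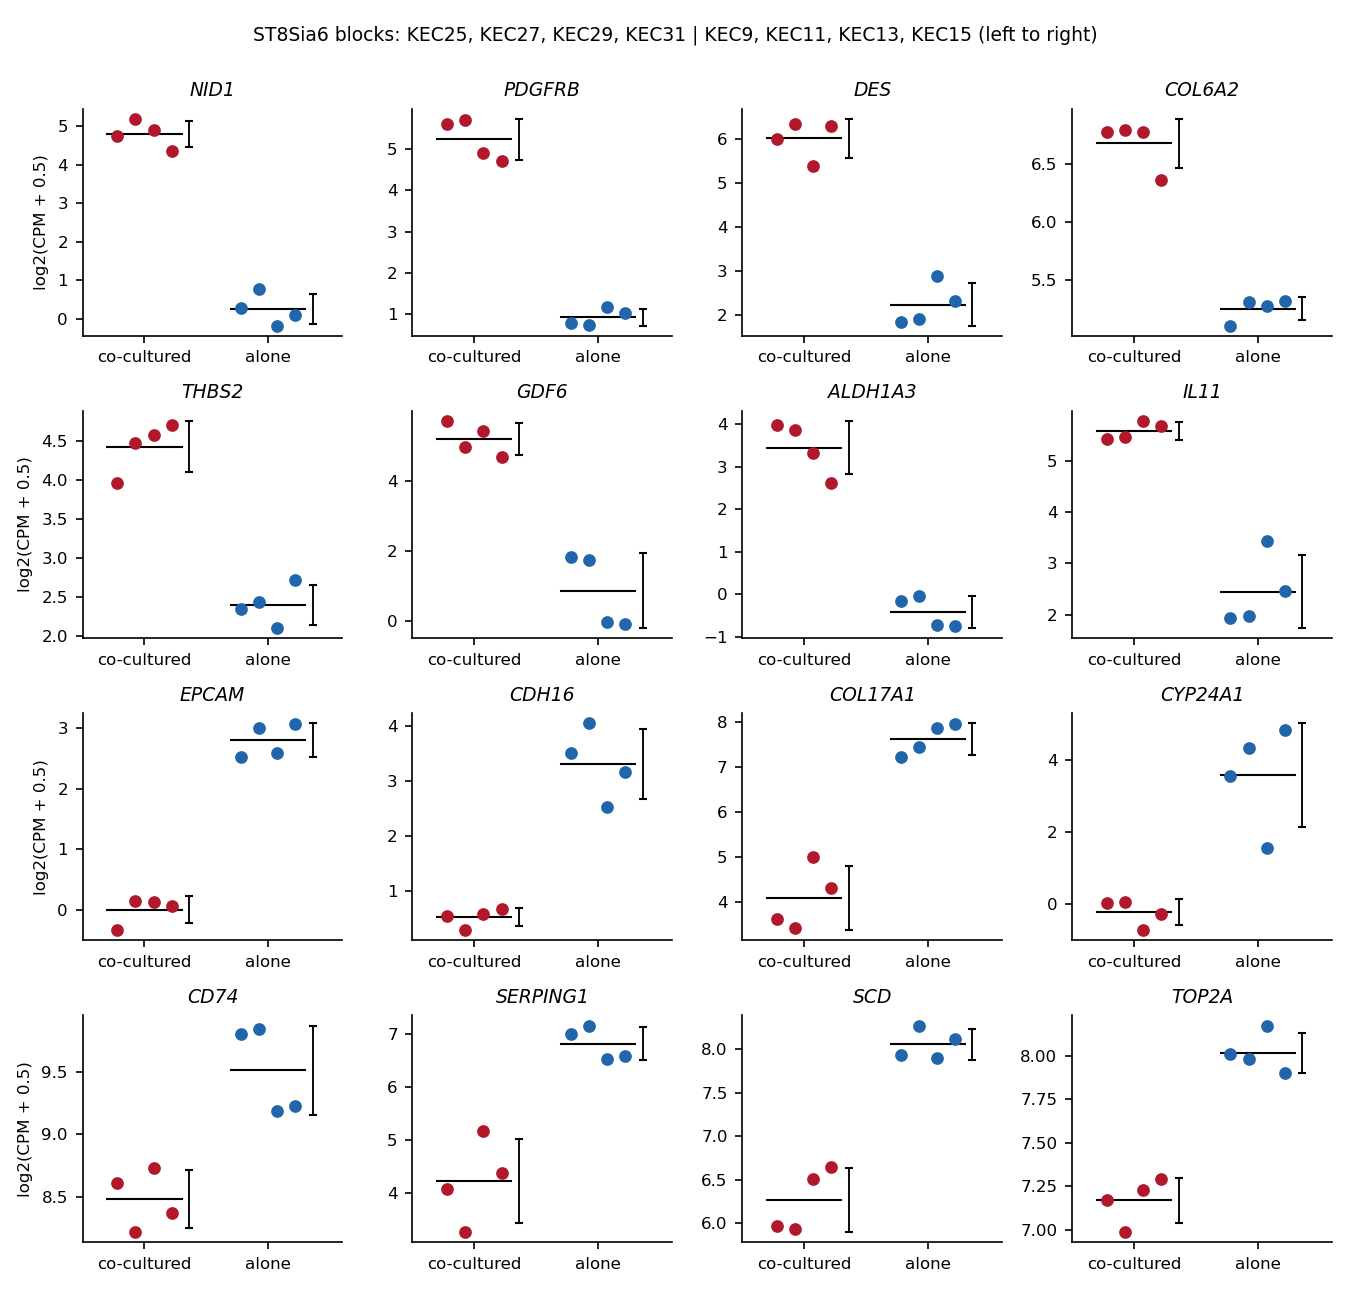
Levels of 16 genes in each library, as log2(CPM + 0.5), with the co-cultured ST8Sia6 block left of the block alone in each panel. Points follow the library order given in the title, horizontal lines are means and bars are SDs (n = 4 each). The 8 genes in the upper rows are higher and the 8 in the lower rows lower in the co-cultured block, and the groups do not overlap in any panel.

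Of 25 mesenchymal genes, 9 rose and 0 fell (median 0.41). SNAI1, a repressor of epithelial cadherin, rose to 14.2, 11.5, 17.6 and 18.4 CPM in co-cultured cells, against 2.82, 2.48, 6.86 and 3.62 CPM alone (log2 fold change 1.96 ± 0.32, adjusted p = 0.00616). RUNX1, a transcription factor of blood and mesenchyme, had 69.9 to 81.8 CPM in co-cultured cells, against 31.4 to 42.1 CPM alone. TPM2, a tropomyosin of contractile filaments, had 196 to 262 CPM in co-cultured cells, against 102 to 127 CPM alone. The others were ACTA2, PDGFRB, TGFB2, FOXC2, PRRX1 and ZEB1. VIM, the mesenchymal filament vimentin, had 3183 to 4558 CPM in co-cultured cells and 3457 to 5278 CPM alone and did not pass. The count of rising members was 5 without KEC11, 5 without KEC27, 6 without KEC9 and 6 without KEC15. VGLL3, a cofactor of TEAD transcription factors, was among the most clearly separated rises over all genes, at 39.2, 52.5, 34.7 and 42.2 CPM in co-cultured cells, against 11.8, 12.4, 10.1 and 12.9 CPM alone (1.84 ± 0.16, adjusted p = 0.0008). WASF3, a regulator of actin assembly, had 16.7 to 19 CPM in co-cultured cells, against 6.05 to 7.56 CPM alone.

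Of 19 matrix proteases and their inhibitors, 3 rose, 1 fell and 15 did not pass, beside 10.9% higher and 9.07% lower over all genes. ADAM8, a metalloprotease of inflamed tissue, rose to 94.7, 80.4, 86.5 and 62.0 CPM in co-cultured cells, against 21.6, 18.7, 35.9 and 29.8 CPM alone. ADAM19 rose to 51.2 to 109 CPM, against 25.0 to 33.8 CPM alone, and TIMP3, an inhibitor of metalloproteases, to 1416 to 1863 CPM, against 772 to 1137 CPM alone. TIMP4 fell to 0.356 to 0.934 CPM, against 1.94 to 2.33 CPM alone.

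Of 23 genes of the BMP and TGF-beta family, 5 rose, 1 fell and 17 did not pass (median 0.27). Over all genes 10.9% were higher and 9.07% lower. GDF6, a BMP ligand of joint and eye development, rose to 51.1, 30.4, 42.0 and 24.8 CPM in co-cultured cells, against 3.03, 2.88, 0.492 and 0.452 CPM alone (log2 fold change 4.45 ± 0.62, adjusted p = 0.00376). The libraries alone split into a pair near 3 CPM and a pair under 0.5 CPM, both far below the co-cultured range. TGFB3 had 11.4 to 18.4 CPM in co-cultured cells, against 3.19 to 5.82 CPM alone, and TGFB2 had 117 to 149 CPM, against 39.5 to 75.1 CPM alone. NOG, the secreted BMP antagonist noggin, rose to 1.01 to 1.995 CPM, against 0.226 to 0.809 CPM alone, and SMAD7, an intracellular inhibitor of TGF-beta signalling, rose too (log2 fold change 0.70). GREM1, another BMP antagonist, was the member that fell (-0.96). Without KEC9, KEC11 or KEC15 the higher members were 3 in each case.

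Of 17 retinoic acid genes, 2 rose and 3 fell, beside 10.9% higher and 9.07% lower over all genes. Within this list, enzymes of retinoic acid synthesis moved in opposite directions. ALDH1A3 rose to 15.3, 14.1, 9.57 and 5.64 CPM in co-cultured cells, against 0.404, 0.474, 0.106 and 0.0969 CPM alone (log2 fold change 5.37 ± 0.55, adjusted p = 0.00125), and ALDH1A2 to 1.22 to 1.84 CPM, against 0.109 to 0.363 CPM alone. ALDH1A1, the most abundant of the 3 enzymes in CPM, which are not corrected for gene length, fell to 159, 202, 289 and 355 CPM, against 527, 608, 554 and 1018 CPM alone. RARB, a retinoic acid receptor, fell to 8.02 to 14.4 CPM, against 21.9 to 23.3 CPM alone, and CRABP2, a carrier of retinoic acid, fell as well (-1.64).

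Wnt and Notch genes gave 7 higher and 2 lower of 35 (median 0.29), beside 10.9% higher and 9.07% lower over all genes. HEYL, a target of Notch in mural cells, rose to 1.25, 2.27, 1.04 and 2.38 CPM in co-cultured cells, against 0.202, 0.182, 0.457 and 0.452 CPM alone, and HEY1, HEY2 and NOTCH1 rose with it. DKK3, a secreted protein of the Dickkopf family, had 21.1, 25.8, 90.8 and 61.7 CPM in co-cultured cells, against 10.4, 10.8, 14.9 and 11.8 CPM alone. WNT7B, a ligand of epithelia, fell to 6.15 to 10.6 CPM, against 15.1 to 19.8 CPM alone. Leaving out 1 library reduced the higher members to 2 without KEC11, 3 without KEC9, KEC13 or KEC27, and 4 without KEC15 or KEC25.

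Other large rises were in genes nearly silent alone. SLITRK2, a membrane protein known from neurons, had 127, 141, 73 and 70 counts in co-cultured libraries, against 0, 0, 1 and 0 counts alone. The ratio of summed counts per scaled library size was 494, with an exact 95% interval of 88.1 to 1.95e+04 that covers counting error only. NIBAN1, a regulator of the stress response of translation, had 13.6, 10.1, 4.08 and 5.28 CPM in co-cultured cells, against 0.0404, 0.182, 0 and 0.194 CPM alone. GARIN5B, whose role in these cells is not known, had 13.7 to 22.3 CPM in co-cultured cells, against 0.323 to 2.004 CPM alone.

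A minority of inflammatory mediators rose. Of 19 cytokine and chemokine genes tested, 4 rose and 0 fell, beside 10.9% higher over all genes. The median log2 fold change of the list was 0.91. IL11, an interleukin 6 family cytokine of fibroblasts, rose to 42.1, 43.6, 53.9 and 50.5 CPM in co-cultured cells, against 3.31, 3.43, 10.4 and 5.01 CPM alone (log2 fold change 3.10 ± 0.36, adjusted p = 0.00172). CSF1, the macrophage growth factor, had 266, 199, 299 and 226 CPM in co-cultured cells, against 168, 165, 102 and 117 CPM alone. CXCL8, the neutrophil chemokine, had 138, 65.7, 302 and 140 CPM in co-cultured cells, against 58.5, 33.4, 37.4 and 5.62 CPM alone (2.24 ± 0.65, adjusted p = 0.042). CSF2, the granulocyte and macrophage growth factor, stayed at 0.644 to 1.52 CPM in co-cultured cells, against 0.121 to 0.352 CPM alone. IL11 was level across the 4 co-cultured libraries, whereas CXCL8 varied widely in both groups. IL6 had 46.0, 16.96, 48.3 and 22.2 CPM in co-cultured cells, against 93.8, 78.7, 23.2 and 12.4 CPM alone, and CCL2, IL1A, CCL5 and CXCL2 did not pass either. Only 2 of the 4 calls passed without KEC25, and 3 passed without KEC9, KEC11, KEC13, KEC15 or KEC29.

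Of 23 NF-kB subunits and feedback genes, 4 rose and 0 fell (median 0.42), beside 10.9% higher over all genes. ZC3H12A, whose RNase activity removes mRNAs of cytokines, rose to 151, 128, 164 and 136 CPM in co-cultured cells, against 66.5, 60.4, 82.3 and 53.9 CPM alone (log2 fold change 1.14 ± 0.15, adjusted p = 0.0032). RELB, a subunit of the alternative NF-kB pathway, had 39.4 to 47.9 CPM in co-cultured cells, against 24.1 to 33.9 CPM alone. NFKBIZ, a nuclear IkB protein, had 132 to 290 CPM, against 92.6 to 124 CPM alone, and TRAF1, an adaptor of TNF receptors, had 3.83 to 7.48 CPM, against 2.46 to 3.59 CPM alone. The count was 2 without KEC9, KEC11 or KEC13, and 2 without KEC9 and KEC31 together.

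Adhesion molecules for leukocytes separated the pairs of co-cultured libraries rather than the groups. VCAM1, the endothelial ligand of leukocyte integrin VLA-4, had 166, 99.7, 1255 and 734 CPM in co-cultured cells, against 268, 272, 276 and 165 CPM alone. KEC29 and KEC31 stood above every library alone, and KEC25 and KEC27 at or below the lower end. ICAM1, the ligand of LFA-1, had 117, 93.8, 658 and 433 CPM in co-cultured cells, against 225, 230, 273 and 148 CPM alone. Over all 4 libraries neither passed (log2 fold changes 1.18 ± 0.68 and 0.55 ± 0.56). In KEC29 and KEC31 the log2 fold change was 1.96 for VCAM1 and 1.26 for ICAM1 (edgeR adjusted p = 0.0056 and 0.0166), and in KEC25 and KEC27 it was -0.85 and -1.02 (adjusted p = 0.0469 and 0.0153). Within the 13 tested adhesion genes, 2 rose over all 4 libraries, both junction proteins, beside 10.9% higher over all genes. ESAM had 4.16, 4.38, 2.52 and 2.38 CPM in co-cultured cells, against 1.09, 1.02, 1.20 and 1.71 CPM alone, and CD99L2 had 11.2 to 17.4 CPM, against 7.17 to 9.68 CPM alone. Neither passed without KEC9 or KEC11. Of the endothelial identity genes tested, ESAM, ENG and FLT1 rose and none of the 6 fell, FLT1, a VEGF receptor, having 67.0, 71.1, 160 and 106 CPM in co-cultured cells, against 46.6, 48.9, 60.5 and 43.8 CPM alone. That count was 1 without KEC9 or KEC11.

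**Figure D4:**
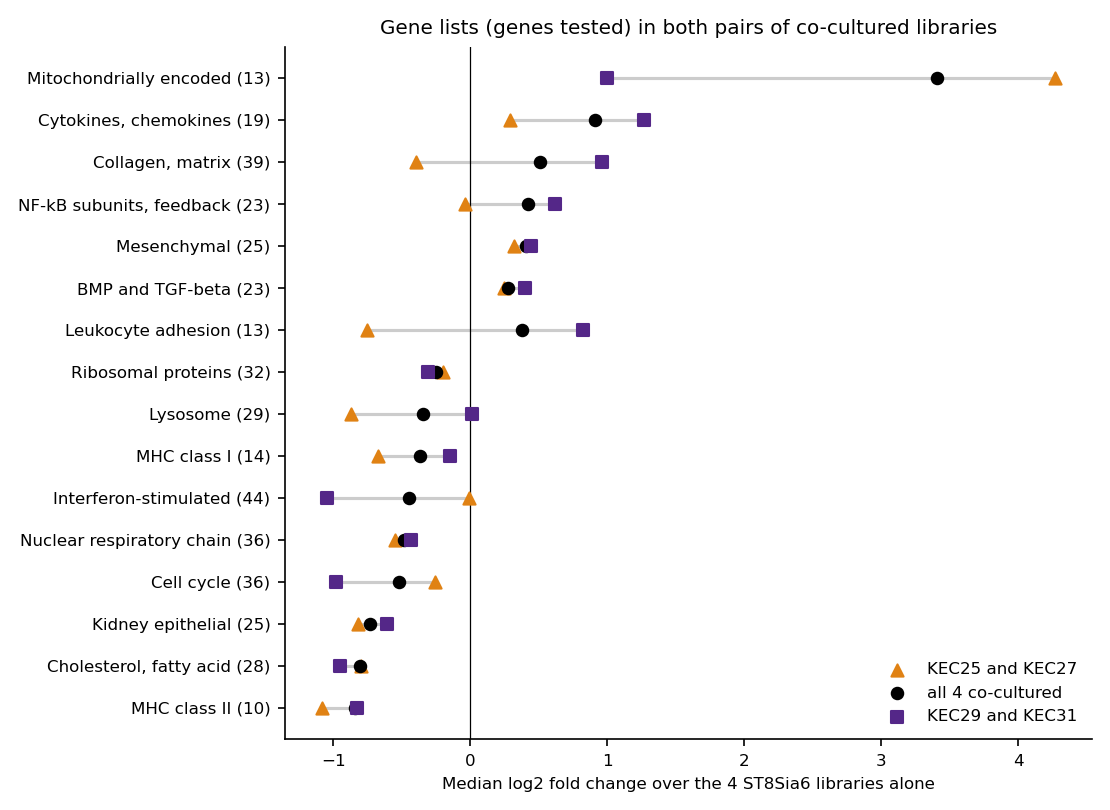
Median log2 fold change over the 4 ST8Sia6 libraries alone of 16 gene lists (number of genes tested in brackets), for all 4 co-cultured libraries (circles), KEC25 with KEC27 (triangles) and KEC29 with KEC31 (squares). Cholesterol and fatty acid genes lie at -0.80 in KEC25 and KEC27 and at -0.95 in KEC29 and KEC31, whereas matrix genes lie at -0.39 in KEC25 and KEC27 and 0.96 in KEC29 and KEC31. Leukocyte adhesion genes spread between -0.76 and 0.82 in the same way.

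Coagulation and thromboregulation genes gave 4 higher and 2 lower of 23, beside 10.9% higher and 9.07% lower over all genes. F3, tissue factor, which starts the coagulation cascade, rose to 14.7, 14.2, 42.0 and 36.02 CPM in co-cultured cells, against 5.12, 5.21, 8.65 and 8.92 CPM alone (log2 fold change 1.93 ± 0.39, adjusted p = 0.0131). PTGIS, which makes the platelet inhibitor prostacyclin, fell to 0.119, 0.0554, 0.297 and 0.0966 CPM in co-cultured cells, against 1.45, 2.15, 3.09 and 2.20 CPM alone (-3.88 ± 0.46, adjusted p = 0.00188). PLAT, the tissue plasminogen activator, fell to 80.2, 88.0, 307 and 246 CPM, against 638, 683, 369 and 384 CPM alone. Inhibitors of plasminogen activation rose, SERPINE2 to 375 to 694 CPM, against 127 to 229 CPM alone, and SERPINB2 to 3.67 to 7.01 CPM, against 0.242 to 2.43 CPM alone. PTGS2, the inducible cyclooxygenase, rose as well (log2 fold change 2.56). The 4 higher members were 2 without KEC11, KEC15 or both KEC9 and KEC31.

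Of 10 tested MHC class II genes, which serve to present antigen to CD4 T cells, 5 fell and 0 rose, with a median log2 fold change of -0.84. CD74, the invariant chain, fell to 390, 297, 424 and 329 CPM in co-cultured cells, against 892, 915, 581 and 597 CPM alone (-1.06 ± 0.21, adjusted p = 0.0117). SLA-DQB1, a class II beta chain, fell to 12.4, 9.31, 33.0 and 21.2 CPM, against 85.5, 93.7, 49.0 and 72.1 CPM alone (-1.99 ± 0.37, adjusted p = 0.0103). SLA-DMA and SLA-DMB, which load peptides onto class II, and SLA-DOA also fell. The gene given the symbol HLA-DRA in the deposited table fell to 23.7, 8.54, 29.3 and 11.6 CPM, against 265, 280, 70.5 and 96.0 CPM alone. KEC9 and KEC11 were the highest in most of these genes, and all 4 libraries alone exceeded all 4 co-cultured ones. Counts of SLA genes are uncertain, since near-identical copies can share reads. CIITA, the transactivator of class II genes, had 78.2, 66.2, 40.3 and 35.3 CPM in co-cultured cells, against 48.1, 48.0, 26.5 and 45.8 CPM alone, and did not pass. None of 14 MHC class I genes passed (median -0.37). The gene nearest to passing was PSME1, a proteasome activator, at 6.04 to 8.67 CPM in co-cultured cells, against 4.46 to 5.37 CPM alone (adjusted p = 0.0729). Without KEC9 and KEC31, 3 class II genes fell, and against KEC13 and KEC15 none passed.

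The complement and costimulatory genes that passed were all lower, beside 9.07% lower and 10.9% higher over all genes. SERPING1, the inhibitor of complement C1, fell to 16.3, 9.09, 35.7 and 20.2 CPM in co-cultured cells, against 127, 142, 92.0 and 95.5 CPM alone (log2 fold change -2.50 ± 0.36, adjusted p = 0.00426). CFI, which inactivates C3b, fell to 3.15 to 5.86 CPM, against 8.54 to 14.4 CPM alone, and CFB, of the alternative pathway convertase, to 1.496 to 4.23 CPM, against 6.89 to 11.1 CPM alone. They were the 3 of 11 complement genes that passed. Among 15 costimulatory and checkpoint genes, CD70, the ligand of CD27 on lymphocytes, fell to 7.07, 7.98, 17.3 and 11.4 CPM, against 75.8, 83.6, 43.8 and 52.6 CPM alone (-2.55 ± 0.31, adjusted p = 0.00237). TNFSF9, the ligand of 4-1BB, fell to 16.2 to 48.5 CPM, against 48.5 to 84.2 CPM alone.

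Interferon-stimulated genes did not follow contact. Of 44 tested, 1 rose, 0 fell and 43 did not pass, with a median of -0.45. The mean log2(CPM + 0.5) of the list was 6.86, 6.27, 5.79 and 5.46 in co-cultured libraries, against 7.49, 7.39, 5.18 and 4.58 alone, so the libraries alone enclosed the co-cultured ones. MX1, an antiviral GTPase, had 1144, 919, 429 and 449 CPM in co-cultured cells, against 2050, 1900, 313 and 186 CPM alone. Without KEC9 and KEC31 the list's median was 0.09, in the other direction. IRF9, the DNA-binding subunit of the interferon-activated complex ISGF3, was the member that rose, to 7.54, 8.76, 6.30 and 4.41 CPM, against 3.35, 3.57, 1.86 and 1.49 CPM alone (log2 fold change 1.39 ± 0.34, adjusted p = 0.0244). Of 13 nucleic acid sensing genes, TBK1 and IRF3 rose (0.76 and 0.39) and STING1 fell (-0.61). Over all genes 10.9% were higher and 9.07% lower. Neither the TBK1 nor the IRF3 rise passed without KEC9, KEC11, KEC15, KEC25 or KEC29.

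Of 25 kidney epithelial genes, 9 fell, 1 (CUBN) rose and 15 did not pass, with a median of -0.73. EPCAM, an epithelial adhesion molecule, fell to 0.297, 0.610, 0.593 and 0.548 CPM in co-cultured cells, against 5.25, 7.51, 5.52 and 7.88 CPM alone (log2 fold change -3.65 ± 0.27, adjusted p = 0.000657). CDH16, the kidney cadherin, fell to 0.9501, 0.721, 1.001 and 1.10 CPM, against 10.9, 16, 5.24 and 8.47 CPM alone (-3.42 ± 0.36, adjusted p = 0.00128). CYP24A1, which degrades the active form of vitamin D, fell to 0.534, 0.554, 0.111 and 0.322 CPM, against 11.3, 19.8, 2.46 and 27.9 CPM alone. Each of these genes was low in all 4 co-cultured libraries, and their spread lay mostly among the cells alone. The calcium channel TRPV6 had 0, 1, 5 and 4 counts in co-cultured libraries, against 89, 140, 56 and 198 counts alone. The tight junction protein CLDN8 fell to 1.66 to 6.06 CPM, against 12.2 to 59.2 CPM alone. CDH1, epithelial cadherin, fell to 42.7, 42.1, 99.2 and 90.3 CPM, against 306, 365, 154 and 213 CPM alone. KRT8 and KRT18 did not pass. The count of falling members was 6 without KEC9 or KEC11.

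COL17A1, a transmembrane collagen of the hemidesmosomes that anchor epithelia, fell to 11.99, 10.4, 31.7 and 19.4 CPM in co-cultured cells, against 148, 174, 232 and 245 CPM alone (log2 fold change -3.45 ± 0.36, adjusted p = 0.00128). SCIN, an actin-severing protein, fell to 0.416 to 1.16 CPM, against 6.26 to 16.8 CPM alone. ANGPT2, the angiopoietin that destabilises vessels, fell to 0.290 to 0.887 CPM, against 11.8, 14.7, 1.13 and 4.88 CPM alone. IL1R2, the decoy receptor of interleukin 1, had 0, 0, 6 and 11 counts in co-cultured libraries, against 29, 11, 500 and 53 counts alone, KEC13 holding most of them. Apart from EPCAM, the most clearly separated falls were moderate in size. PLCH1, a phospholipase C, fell to 3.80 to 5.88 CPM, against 17.1 to 21.4 CPM alone (-2.10 ± 0.17, adjusted p = 0.0008). SGPP2, a phosphatase of sphingosine 1-phosphate, fell to 3.44 to 5.41 CPM, against 15.96 to 21.7 CPM alone, and NRK, a kinase, to 7.24 to 12.1 CPM, against 34.1 to 42.3 CPM alone. SDSL fell to 6.12 to 8.38 CPM, against 19.2 to 26.7 CPM alone, and TMEM176A to 1.83 to 2.89 CPM, against 8.43 to 9.59 CPM alone. In build susScr11, EPCAM (ENSSSCG00000008429.5) lies on chromosome 3 from 93168852 to 93185653, COL17A1 (ENSSSCG00000010607.4) on chromosome 14 from 114959408 to 115064783 and SERPING1 (ENSSSCG00000013181.5) on chromosome 2 from 13324158 to 13338663.

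Genes of lipid synthesis were lower. Of 28 cholesterol and fatty acid genes, 18 fell and 0 rose, and the median log2 fold change was -0.80, with -0.80 in KEC25 and KEC27 and -0.95 in KEC29 and KEC31. SCD, the desaturase that makes monounsaturated fatty acids, fell to 62.0, 60.6, 90.8 and 100 CPM in co-cultured cells, against 244, 309, 238 and 278 CPM alone (-1.78 ± 0.19, adjusted p = 0.00128). HMGCS1, an early step of the mevalonate pathway, fell to 71.1, 64.9, 42.2 and 56.7 CPM, against 202, 222, 125 and 162 CPM alone. Of the later steps to cholesterol, SQLE fell to 43.8 to 56.7 CPM, against 88.1 to 137 CPM alone. The regulators SREBF1 and SREBF2 fell by 0.58 and 0.75 on the log2 scale. The number falling was 10 without KEC9, 10 without KEC11, 10 without KEC27 and 10 without KEC9 and KEC31. Against KEC13 and KEC15 alone 5 fell.

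Of 36 cell cycle genes, 14 fell, 0 rose and 22 did not pass (median -0.52). TOP2A, topoisomerase II alpha, fell to 144, 126, 149 and 156 CPM in co-cultured cells, against 257, 252, 288 and 238 CPM alone (log2 fold change -0.85 ± 0.12, adjusted p = 0.00357). MCM7, of the replicative helicase, fell to 126, 129, 94.8 and 106 CPM, against 215, 206, 220 and 177 CPM alone, as did MCM2, MCM3, MCM4 and MCM6. TYMS, which makes thymidylate, fell to 48.2 to 60.8 CPM, against 86.4 to 103 CPM alone, and RRM1, of ribonucleotide reductase, to 113 to 125 CPM, against 169 to 185 CPM alone. CCNE1, CCNE2, CDK1, CDK2, CDK4 and CDC6 were the other members that fell. In KEC29 and KEC31 the median was -0.98 with 32 members lower, and in KEC25 and KEC27 it was -0.26 with 10 lower and 1 higher. The number falling was 6 without KEC9, 6 without KEC11 and 9 without KEC27.

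Energy metabolism showed opposite movements of mitochondrial and nuclear transcripts. All 13 protein-coding genes of the mitochondrial chromosome had positive log2 fold changes and 12 rose, with a median of 3.41, which was 4.27 in KEC25 and KEC27 and 0.997 in KEC29 and KEC31. COX3, a subunit of cytochrome oxidase, had 20400, 22670, 3190 and 2448 CPM in co-cultured cells, against 968, 926, 1589 and 1269 CPM alone. ND6, the gene on the other strand of the molecule, did not pass. No member passed without KEC9, none without KEC11, 1 without KEC15, 5 without KEC27 and 7 without KEC13. Of 36 nuclear genes of the respiratory chain, 21 fell and 1 (NDUFS8) rose, with a median of -0.49. COX8A fell to 46.3, 42.3, 43.8 and 50.9 CPM in co-cultured cells, against 70.3, 70.9, 66.0 and 77.5 CPM alone (log2 fold change -0.64 ± 0.10, adjusted p = 0.00566). SDHB, of succinate dehydrogenase, fell to 36.9 to 42.7 CPM, against 58.7 to 62.9 CPM alone. With the mitochondrial genes taken out before scaling, 19 nuclear members fell. Leaving out 1 library changed this count to 7 or 8 without any of KEC9, KEC11, KEC13, KEC15, KEC25 or KEC27, to 11 without KEC29 and to 33 without KEC31. Of 29 hypoxia and glycolysis genes 5 fell and 2 rose, beside 9.07% lower and 10.9% higher over all genes. GPI, an enzyme of glycolysis, fell to 177 to 220 CPM, against 245 to 352 CPM alone. EGLN3, an oxygen sensor, fell to 2.93 to 5.58 CPM, against 10.1 to 14.7 CPM alone. PFKFB4, a regulator of glycolysis, rose to 17.6 to 24.5 CPM, against 11.6 to 14.3 CPM alone. Between 1 and 2 of this list fell without any of KEC11, KEC13, KEC15, KEC25, KEC27 or KEC29, and 9 fell without KEC31.

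Calls among stress genes went in both directions, beside 10.9% higher and 9.07% lower over all genes. In a list of 30 amino acid and unfolded protein response genes, 4 rose and 1 fell. DDIT3, the transcription factor CHOP, rose to 5.23, 4.27, 2.30 and 1.74 CPM in co-cultured cells, against 0.525, 1.06, 0.527 and 0.582 CPM alone. STC2, a secreted glycoprotein, rose to 22.2 to 45.9 CPM, against 11.9 to 18.1 CPM alone, ERN1 and TRIB3 rose as well, and DDIT4, an inhibitor of mTOR, fell to 122 to 192 CPM, against 245 to 294 CPM alone. Of 23 apoptosis and growth arrest genes, 5 fell and 3 rose. CDKN1A, a brake on the cell cycle, fell to 202 to 280 CPM, against 314 to 452 CPM alone, and GADD45B rose to 65.0 to 102 CPM, against 36.4 to 54.6 CPM alone. Without any of KEC9, KEC11, KEC25 or KEC27, 2 of this list fell and 1 rose. Of 25 immediate early genes, EGR1, FOSB and NR4A3 were higher and the ERK phosphatases DUSP4 and DUSP6 lower, which is near the shares over all genes. Heat shock genes gave 3 falls of 21 (HSPA4, HSPA8 and HSPE1), and NRF2 target genes 2 of 19 (NQO1 and TKT). No heat shock gene passed without any of KEC9, KEC11, KEC13, KEC25 or KEC29, and 6 fell without KEC31. None of 29 lysosome genes and none of 32 ribosomal protein genes passed, with medians of -0.34 and -0.25. LAMP1 and RPL27 were nearest, with adjusted p-values of 0.0826 and 0.0921 from edgeR.

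In the pathway that ST8SIA6 belongs to, 2 of 19 genes fell and 1 rose, beside 9.07% lower and 10.9% higher over all genes. ST3GAL5, which makes ganglioside GM3, fell to 2.14, 3.05, 3.45 and 4.06 CPM in co-cultured cells, against 8.23, 9.29, 8.96 and 11.95 CPM alone (log2 fold change -1.59 ± 0.21, adjusted p = 0.00331). GNE, the first enzyme of sialic acid synthesis, fell to 13.5, 12.5, 16.9 and 16.6 CPM, against 21.5, 22.6, 25.1 and 24.4 CPM alone. CMAH, named here after its values were seen because it makes the xenoantigen N-glycolylneuraminic acid, rose to 1.01, 0.721, 0.482 and 0.451 CPM, against 0, 0.0365, 0.0352 and 0 CPM alone. SIGLEC1, itself a sialic acid receptor of macrophages, fell to 0.653, 0.499, 1.52 and 0.129 CPM, against 18.8, 14.3, 1.93 and 2.52 CPM alone, with the higher values in KEC9 and KEC11. Its edgeR adjusted p of 0.0248 was 0.0645 without KEC9, 0.0642 without KEC11, 0.0555 without KEC25, 0.0661 without KEC27 and 0.141 with KEC29 and KEC31 only.

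Some leukocyte markers passed on pig genes, beside 10.9% higher and 9.07% lower over all genes. HCLS1 was the member of 12 tested pan-leukocyte genes that rose, to 6.95, 6.65, 4.60 and 3.03 CPM in co-cultured cells, against 1.37, 1.604, 2.11 and 1.002 CPM alone. PTPRC had 0 counts in KEC25 and KEC27, where HCLS1 was highest, and also in KEC9 and KEC11, where HCLS1 was low. Of 6 B cell markers, EBF1 rose to 2.38 to 3.68 CPM, against 0.328 to 0.844 CPM alone, and CD79A to 8.51 to 12.9 CPM, against 5.47 to 6.995 CPM alone. Among 9 tested monocyte markers ITGAM rose to 0.887 to 1.61 CPM, against 0.219 to 0.517 CPM alone, and SPI1 fell to 2.44 to 3.78 CPM, against 3.63 to 5.65 CPM alone, with groups that overlap. Of 22 T cell markers 5 were analysed and 2 tested, and neither passed, TCF7 having 51.7 to 95.6 CPM in co-cultured cells and 30.3 to 56.7 CPM alone. LCK, a T cell kinase, had 0, 0, 29 and 9 counts in co-cultured libraries, against 0, 0, 1 and 4 alone. None of 4 NK markers analysed passed the filter on low counts. GP9, the platelet marker tested, had a log2 fold change of 0.01.

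The contact response of the ST8Sia6 blocks was set against that of the GFP blocks, which hold 4 co-cultured libraries (KEC17, KEC19, KEC21 and KEC23) and 4 libraries alone (KEC1, KEC3, KEC5 and KEC7). KEC17 and KEC19 are labelled ST8Sia6 plasmid, so here too the labels go against the blocks. ST8SIA6 had 0, 61, 0 and 439 counts in KEC17, KEC19, KEC21 and KEC23, and 0, 27, 0 and 5 in KEC1, KEC3, KEC5 and KEC7. Its highest count in the series thus lay in a GFP block, and its counts did not separate the plasmid blocks. KEC25 and KEC27 lay nearer to the GFP co-cultured block than to KEC29 and KEC31, as given above. PTPRC had 142 and 224 counts in KEC1 and KEC3 and 0 in the other 6 libraries of the GFP blocks, and the mitochondrial share was 13.8% to 19.6% in the GFP co-cultured block. In a fit of all 16 libraries, the response differed between the plasmid blocks for 436 of 14690 genes (interaction term, false discovery rate under 0.05), which is 2.97%. The difference was positive for 297 genes (2.02%) and negative for 139 (0.946%), positive meaning a higher co-cultured over alone ratio in the ST8Sia6 blocks.

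Of the named genes 21 passed the interaction test, 5 of them named for their low interaction p. AEBP1, a matrix-bound protein of connective tissue, had 55.4, 68.5, 72.0 and 72.2 CPM in co-cultured and 50.4, 51.9, 60.9 and 50.8 CPM in ST8Sia6 cells alone. In the GFP blocks it had 23.1, 28.6, 28.5 and 30.01 CPM in co-cultured cells, against 114, 111, 145 and 130 CPM alone. The contact log2 fold change was thus 0.32 in the ST8Sia6 blocks and -2.17 in the GFP blocks, an interaction of 2.48 (adjusted p = 3.6e-06). BGN, the proteoglycan biglycan, had 0.81 and -1.03, an interaction of 1.84 (adjusted p = 0.000403). THBS2 had 2.15 and -0.24 (interaction 2.38, adjusted p = 0.0015), and COL6A1 had 1.07 and -0.92 (1.99, adjusted p = 0.00811). THBS2 did not pass the contact test in the GFP blocks (7.52 CPM in co-cultured and 8.96 CPM alone, edgeR adjusted p = 0.327). DES, NID1 and PDGFRB were higher with contact in both, by 3.89, 5.27 and 4.78 in the ST8Sia6 blocks and 1.17, 2.87 and 2.43 in the GFP blocks. Of the 39 matrix genes, 10 passed the interaction test, each with a positive difference. Of 36 cell cycle genes 6 passed (CDC6, MCM2, MCM3, MCM4, MCM6 and RRM1), each with a negative difference. F3 differed too, at 1.93 in the ST8Sia6 blocks and -0.42 in the GFP blocks (2.34, adjusted p = 0.0224).

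The interaction count depended on which libraries entered the fit. Without KEC9, KEC17, KEC19 and KEC31 a single gene passed, AEBP1 (2.36 ± 0.22, adjusted p = 0.00399). The estimates of BGN, THBS2 and COL6A1 were 1.76, 2.06 and 1.71 in that fit, with adjusted p-values of 0.0809, 0.152 and 0.229 from edgeR. Leaving out 1 library at a time gave 76 to 1229 genes, with 76 without KEC11 or KEC31, 79 without KEC9, 83 without KEC17, 104 without KEC7, 105 without KEC21, 116 without KEC5, 153 without KEC29, 161 without KEC13, 175 without KEC23 and 184 without KEC19. The count was 725 without KEC15, 1072 without KEC3, 1131 without KEC1 and 1229 without KEC25.

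**Figure D5:**
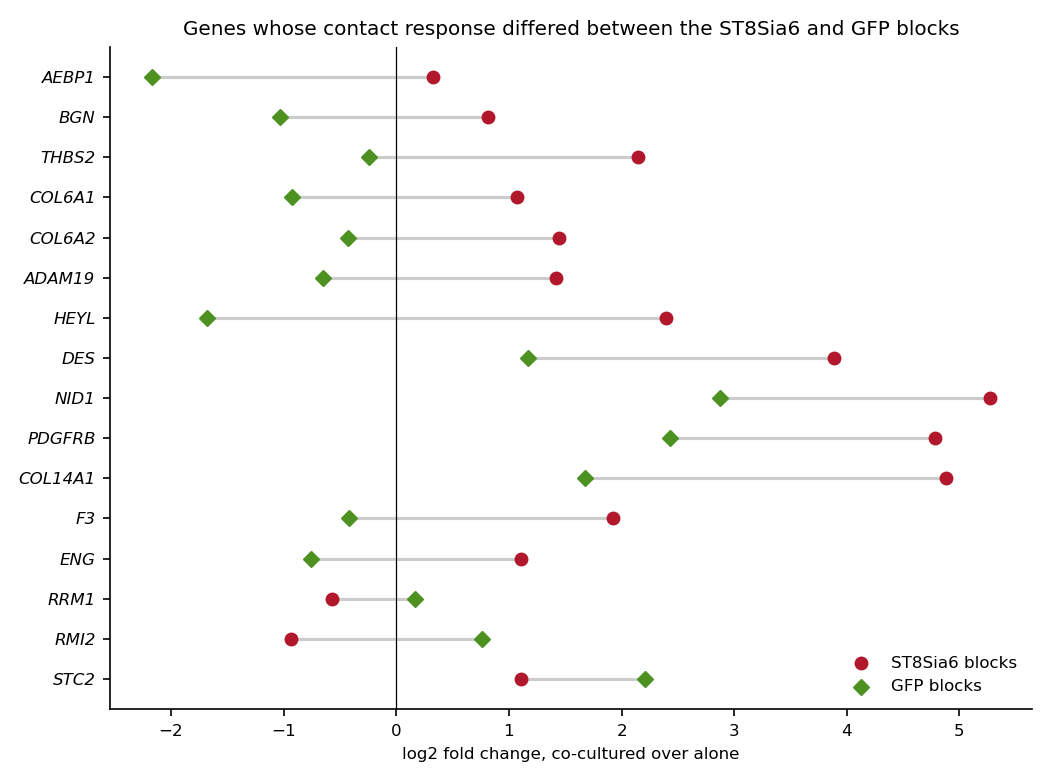
Contact log2 fold change (co-cultured over alone) of 16 genes in the ST8Sia6 blocks (circles) and in the GFP blocks (diamonds), for genes named in the text whose response differed between the blocks. Circles come from the fit of 8 libraries and diamonds from the fit of 16. AEBP1, BGN, COL6A1 and ADAM19 lie above 0 in the ST8Sia6 blocks and below 0 in the GFP blocks, and RRM1 and RMI2 the other way round.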

How the data were processed

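Gene counts of 18 libraries were analysed, grouped as described above. Per the submitters' processing notes, the tools were edgeR 3.40.2, featureCounts (Subread 2.0.3), STAR 2.7.10a and FastQC 0.11.5, with build susScr11. The annotation, strand handling and treatment of reads with several matches were not given in the sources used here. The authors' deposited tables hold raw counts per gene, log2 CPM and log2 fold changes, a signed fold change as a score, a p-value and false discovery rate for each comparison, and gene length as another column, per the file headers. The smallest total count of a gene was 23, and 3248 of 15240 genes had no symbol.

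Low counts were removed by filterByExpr, TMM scaling was applied, and edgeR 4.0.16 gave the test (robust quasi-likelihood fit, two-sided, R 4.3.3) on the 8 libraries, or on 16 for the interaction. The SE given with a log2 fold change is its absolute value divided by the square root of the F statistic, an approximation derived from the test. CPM were scaled over all 18 libraries. ST8SIA6, the mitochondrial share and the pan-leukocyte sum were compared by exact permutation. Alternatives were RLE scaling, other filters, DESeq2 1.42.0, limma-voom (limma 3.58.1) and libraries left out. The members, the 37 gene lists, the tests and the rule for named genes were chosen with earlier results of these data known, and 2 alternatives, each using a pair of the libraries alone, after the files were seen. The rule named ST8SIA6, the 10 largest rises and falls among genes without overlap that averaged 5 CPM or more in their higher group, the 6 rises and falls with the lowest p, up to 4 passing members of each list (or the nearest to passing) and 5 interaction genes, 130 in all. Some results of the named-gene rule are not reported here.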

Additional observations from a re-analysis of the deposited data

Results flagged for a closer look

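Within a group of 4 libraries, 10 values stood apart from the other 3 by Dixon's test at the 95% level, of 266 groups tested, where chance alone flags about 1 in 20. In the co-cultured ST8Sia6 block these were SLA-DMB in KEC27 (3.49 CPM), SERPINB2 in KEC31 (3.67 CPM), COL6A2 in KEC31 (81.9 CPM), GADD45B in KEC29 (65.0 CPM), SDHB in KEC29 (36.9 CPM) and ST8SIA6 in KEC27 (log2 value 0.87). Among the cells alone they were SLITRK2 in KEC13 (0.0352 CPM, 1 count), DDIT3 in KEC11 (1.06 CPM), AEBP1 in KEC13 (60.9 CPM) and ST8SIA6 in KEC11 (log2 value 1.41).

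The contact response of 21 named genes differed between the ST8Sia6 and GFP blocks by the edgeR interaction term. The difference in log2 fold change was positive for NIBAN1 (4.94), HEYL (4.07), COL14A1 (3.197), ACTG2 (2.97), DES (2.71), AEBP1 (2.48), NID1 (2.39), THBS2 (2.38), F3 (2.34), PDGFRB (2.34), ADAM19 (2.07), COL6A1 (1.99), COL6A2 (1.87), ENG (1.86), BGN (1.84), TCF7 (1.46) and EGR1 (1.19). It was negative for RMI2 (-1.70), EGLN3 (-1.65), STC2 (-1.11) and RRM1 (-0.75). The part of the mitochondrial share, of the leukocyte transcripts in KEC1 and KEC3 and of the conflicting labels in these differences was not tested.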

How the results depend on the processing

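The contact count of 2791 genes stayed within 1.5 times under RLE scaling, no filter, a mean of at least 5 CPM, DESeq2, limma-voom, a fit of 16 libraries, removal of mitochondrial genes, KEC29 with KEC31, and without KEC9 and KEC31. It was 1116 when a log2 change of 1 or more in size was also asked, 5933 with KEC25 and KEC27, 1520 against KEC9 and KEC11, and 239 against KEC13 and KEC15, the last 3 with fewer libraries. Leaving out 1 library gave 1108 to 3735. The interaction count of 436 was 1455 with DESeq2, 1 without KEC9, KEC17, KEC19 and KEC31, and 76 to 1229 with 1 library left out. The mitochondrial difference was 8.23 to 15.9 percentage points with 1 library left out (exact p = 0.171 without KEC9, KEC11, KEC13 or KEC15) and 16.01 without KEC9 and KEC31 (exact p = 0.1, the smallest that 3 against 3 can give). The ST8SIA6 difference ranged from -0.60 to 0.42 with 1 library left out (0.03 without KEC25, 0.42 without KEC11). The log2 fold change of GP9, close to 0 with all 8 libraries, was negative at -0.00837 with no filter, -0.00299 with 16 libraries, -0.00302 without mitochondrial genes, -0.33 without KEC9 and KEC31, -0.53 with KEC25 and KEC27, -0.34 against KEC13 and KEC15, and between -0.19 and 0.20 with 1 library left out. Causes were not tested. Of the 130 named genes, the call was kept by 126 with DESeq2, 123 with limma-voom, 100 without KEC9 and KEC31 and 42 against KEC13 and KEC15, and lost by 5 without KEC31 to 30 without KEC11. No paired analysis was possible because the labels give no number that pairs libraries.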

Other observations

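The libraries labelled wild type (KEC39) and KEC plus all cells (KEC40) belong to neither block, and each is a single library. Their root mean square log2 difference was 0.146, against 0.175 between KEC9 and KEC11. Values of KEC39 and KEC40 may thus not be separate observations, although the labels differ. Several genes that were high in the co-cultured ST8Sia6 block were high in both KEC39 and KEC40. NID1 had 62.3 CPM in KEC39 and 64.2 CPM in KEC40, PDGFRB had 109 and 102 CPM, DES had 141 and 138 CPM and GDF6 had 87.0 and 87.8 CPM. Some genes that were low in that block were also low there, EPCAM at 0.415 and 0.237 CPM and COL17A1 at 11.96 and 11.2 CPM. Others were not, CYP24A1 having 11.96 and 10.7 CPM, CDH16 5.21 and 5.09 CPM and ST3GAL5 13.7 and 13.7 CPM. CD74 had 256 and 257 CPM, whereas SCD had 258 and 260 CPM and AEBP1 98.1 and 97.2 CPM. Interferon-stimulated genes were lower in this pair than in any of the 8 libraries of the comparison, with a mean log2(CPM + 0.5) of 2.68 in KEC39 and 2.699 in KEC40, against 4.58 to 7.49.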
